A study of Mus musculus with 6 samples.

Results

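The genes described here are 10 members of the YAP, TAZ and TEAD pathway: the coactivators Yap1 and Wwtr1 (the gene of TAZ), the DNA-binding factors Tead1, Tead2, Tead3 and Tead4, and the target or regulator genes Ankrd1, Amotl2, Lats2 and Ajuba. They were taken as every probe of the array whose annotated gene symbol is one of these 10, which gave 19 of 45281 probes and 10 of 19057 named genes. The samples were 6 stably transfected clones of NIH3T3, fibroblasts from NIH Swiss mouse embryos that grow without limit, each read on 1 one-colour Illumina bead array. The 3 FEAT clones, labelled FEAT-3, FEAT-15 and FEAT-20, carried human FEAT (METTL13) in pEF-DEST51 under the elongation factor 1alpha promoter, and colonies were picked after 7 days in 10 µg/ml blasticidin S and kept for high FEAT protein. The 3 control clones, labelled ΔccdB-1, ΔccdB-2 and ΔccdB-3 and called control 1, 2 and 3 below, carried pEF-DEST51 with ccdB removed, so both groups hold a stably integrated vector. Whether the control clones were selected in the same way is not given in the sources used here. Each array is 1 clone, so the p-values below set the difference between groups against the spread between clones. For each probe that spread was drawn toward that of all tested probes. Differences between clones and between arrays cannot be told apart in it.

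YAP and TAZ bind no DNA themselves. They enter the nucleus, join a TEAD factor and switch on genes such as Ccn1, Ccn2 and Ankrd1. Of the Hippo kinases, MST activates LATS, and LATS phosphorylates YAP and TAZ and holds them in the cytoplasm. Cell density, stiffness and actin tension set how much of this happens in fibroblasts. Several targets feed back on the pathway: LATS2 is one of the inhibiting kinases, AMOTL2 is a scaffold that binds YAP, and AJUBA is a LIM protein that binds and restrains LATS.

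The core motif that TEAD factors bind is GGAATG, read on the other strand as CATTCC, so the promoters were searched for it on both strands. RefSeq promoters of GRCm38.p6, from 250 bases before to 50 after a listed start of a gene, were at hand for 8 of the 10 genes, all but Tead1 and Tead4. Of these 8, 7 held GGAATG on either strand: Ankrd1, Amotl2, Yap1, Wwtr1, Tead3, Lats2 and Ajuba. Tead2 had no match in its window. Over all genes of the promoter table, 16.6% of 27025 had a match, and over all promoters 14.7% of 32851. A match is only these letters in the window and shows no binding. The 7 genes include ones whose groups separated and ones whose groups overlapped, and of the latter Lats2 and Tead3 were too dim for a fold.

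The 250 bases before the listed start are shown for Ankrd1 and Amotl2, the genes that lay higher in all FEAT clones. Capitals mark the motif. Ankrd1 lies on the minus strand (chr19:36119845-36120094) and has the motif at positions -210 and -123 from the start. Amotl2 lies on the plus strand (chr9:102717554-102717803) and has it at -65. The listed start of Amotl2 lies inside the annotated gene (chr9:102717091-102733418), and so does the window shown. The bases before the outermost start of Amotl2 were not searched.
Ankrd1: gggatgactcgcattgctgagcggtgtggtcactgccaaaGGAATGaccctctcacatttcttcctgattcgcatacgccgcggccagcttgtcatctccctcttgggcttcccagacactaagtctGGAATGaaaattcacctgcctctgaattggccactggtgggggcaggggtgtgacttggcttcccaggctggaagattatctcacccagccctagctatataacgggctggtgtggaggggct
Amotl2: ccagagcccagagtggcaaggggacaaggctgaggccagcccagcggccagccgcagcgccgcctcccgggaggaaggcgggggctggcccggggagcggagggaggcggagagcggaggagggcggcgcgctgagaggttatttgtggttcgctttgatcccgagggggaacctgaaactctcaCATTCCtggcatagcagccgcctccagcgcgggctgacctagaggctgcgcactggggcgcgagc

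For comparison, these are the 26 bases around the motif in genes whose groups overlapped, at -141 in Yap1 (chr9:8004722-8004747), -136 in Wwtr1 (chr3:57576031-57576056) and -186 and -164 in Ajuba (chr14:54577832-54577857 and chr14:54577810-54577835), all on the minus strand. The last lines show Ccn1 (chr3:145650073-145650098, minus strand, -103) and Crim1 (chr17:78200159-78200184, plus strand, -79), target genes shown because every FEAT clone lay higher than every control clone. Of 12 genes of the target list in the promoter table, 4 held the motif, Ccn1, Crim1, Axl and Ptpn14, and 8 did not. Axl and Ptpn14 overlapped between the groups. Ccn2 and Nuak2, also on the target list, were not in the promoter table, so their promoters were not searched.
Yap1: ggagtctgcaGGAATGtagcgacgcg
Wwtr1: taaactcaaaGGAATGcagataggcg
Ajuba: ttgatggataCATTCCacagtgcccc
Ajuba: cccctccgcgCATTCCaactgtaaac
Ccn1: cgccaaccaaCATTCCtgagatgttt
Crim1: ggcgggggggGGAATGaggtaggatg
The motif of AP-1, TGANTCA, and the CArG box of SRF were searched too, on both strands. Neither was found in the windows of the 8 genes, against 8.97% and 1.81% of all genes.

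The array means before any scaling ran from 616 to 735, and 36.9% to 39.8% of probes lay above a background limit set for each array at 3 SDs above the peak of its log2 values, with the SD taken from the side below that peak. Of the fibroblast markers, 11 of 12 were above this limit on all 6 arrays, among them Col1a1, Fn1, Vim and Thy1, while Lum was above it on none. Of the markers of other cell types, 6 of 8 epithelial, 7 of 8 endothelial and 5 of 6 immune genes were above it on no array, among them Epcam, Pecam1 and Ptprc. The exceptions were the epithelial genes Cdh1 and Cldn7 and the immune gene Lyz2, above it on all 6 arrays, and the endothelial gene Tek, above it on 1. Per-clone intensities below are the deposited value table, in which every array has the same mean of 680 and the background is still included. Log2 differences are FEAT minus control and come from background-corrected, quantile-normalized values. Of the 19 probes, 17 were among the 60% brightest of the array, which were the ones tested, and every gene had at least 1 of them.

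The 10 genes were chosen by their place in the pathway and with their FEAT against control log2 differences in these clones already known, so their differences are a description and no p-value is given for them. Ankrd1 and Amotl2 were higher and Tead4 was lower in every FEAT clone than in every control clone. Yap1, Wwtr1, Tead1, Tead2, Tead3, Lats2 and Ajuba overlapped between the groups. By gene, the groups did not overlap for 3 of 10, against 15.2% of all genes tested, and by probe they did not overlap for 5 of 17, against 14.1% of all probes tested. In the limma fit over all probes 0 of the 17 passed an adjusted p of 0.05, a mark that 0.184% of all probes reached, and 5 of 17 had an unadjusted p under 0.05, against 9.08% of all. Nothing is read from these counts, since the choice of genes used this contrast. The median log2 difference over the 10 genes was -0.07, and over all 13315 genes tested it was 0.0071.

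**Figure D1:**
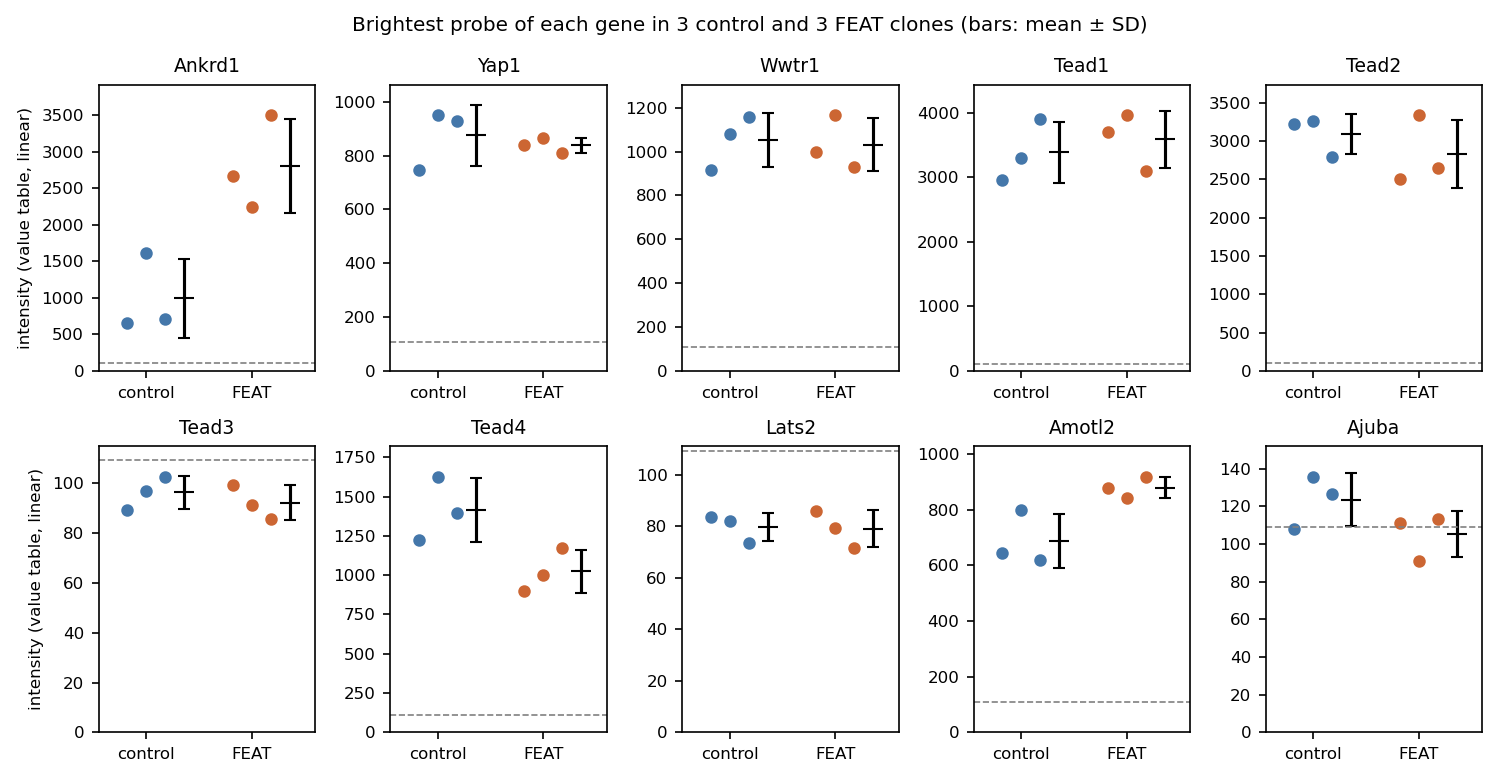
Intensity of the brightest probe of each of the 10 genes (value table of the series, linear axis from 0) in the 3 control clones (blue, control 1, 2 and 3 from left to right) and the 3 FEAT clones (orange, FEAT-3, FEAT-15 and FEAT-20), with mean and SD. The dashed line is the highest of the 6 arrays' background limits, 109. Ankrd1 runs from 651 to 1614 in control clones and from 2243 to 3503 in FEAT clones, and Tead3 and Lats2 stay under the line.

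Yap1 encodes the coactivator YAP. Its probe read 745, 950 and 929 in control 1, 2 and 3, and 840, 866 and 811 in FEAT-3, FEAT-15 and FEAT-20. The FEAT clones lay inside the range of the control clones, and the log2 difference was -0.08 (SE 0.14, n = 3 clones each).

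Wwtr1 encodes TAZ, the partner and relative of YAP. Its brightest probe read 917, 1080 and 1160 in the control clones and 997, 1166 and 931 in the FEAT clones, with full overlap and a log2 difference of -0.06 (SE 0.15). The second probe read 353, 357 and 384 against 383, 413 and 304, a difference of -0.02. Another read 266, 326 and 348 against 386, 386 and 321, a difference of 0.24 (SE 0.16), so the probes of Wwtr1 did not share a direction and none separated the groups.

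The TEAD factors share a DNA-binding domain and differ in where they are expressed. Tead1 had a brightest probe at 2954, 3306 and 3897 in the control clones and at 3706, 3964 and 3094 in the FEAT clones, a log2 difference of 0.07 (SE 0.16). Its second probe gave 0.13, and another was above background on no array and outside the tested probes. Both readable probes overlapped between the groups.

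Tead2 read 3225, 3267 and 2794 in the control clones and 2508, 3337 and 2643 in the FEAT clones. FEAT-15 was the highest of all 6 in the value table but not on the normalized scale, and the groups overlapped on both (log2 difference -0.15, SE 0.15). Tead3 read 85.6 to 103 over the 6 clones, was above background in control 3 alone, and no fold is given for it.

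Tead4 was the TEAD gene whose groups separated. Its brightest probe read 1225, 1626 and 1396 in control 1, 2 and 3, and 900, 1000 and 1171 in FEAT-3, FEAT-15 and FEAT-20. Every FEAT clone lay below every control clone, with a narrow gap between FEAT-20 and control 1, and the log2 difference was -0.51 (SE 0.15). The second probe read 471, 558 and 491 against 399, 449 and 455, again without overlap, with a difference of -0.27 (SE 0.13). Another read 186, 284 and 221 against 159, 168 and 196, where FEAT-20 passed control 1, with a difference of -0.49 (SE 0.19). The last was above background on no array. The 3 readable probes therefore shared the direction, and with a clone left out the brightest probe gave between -0.62 and -0.40. Among 13315 genes this was the 281st largest fall.

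**Figure D2:**
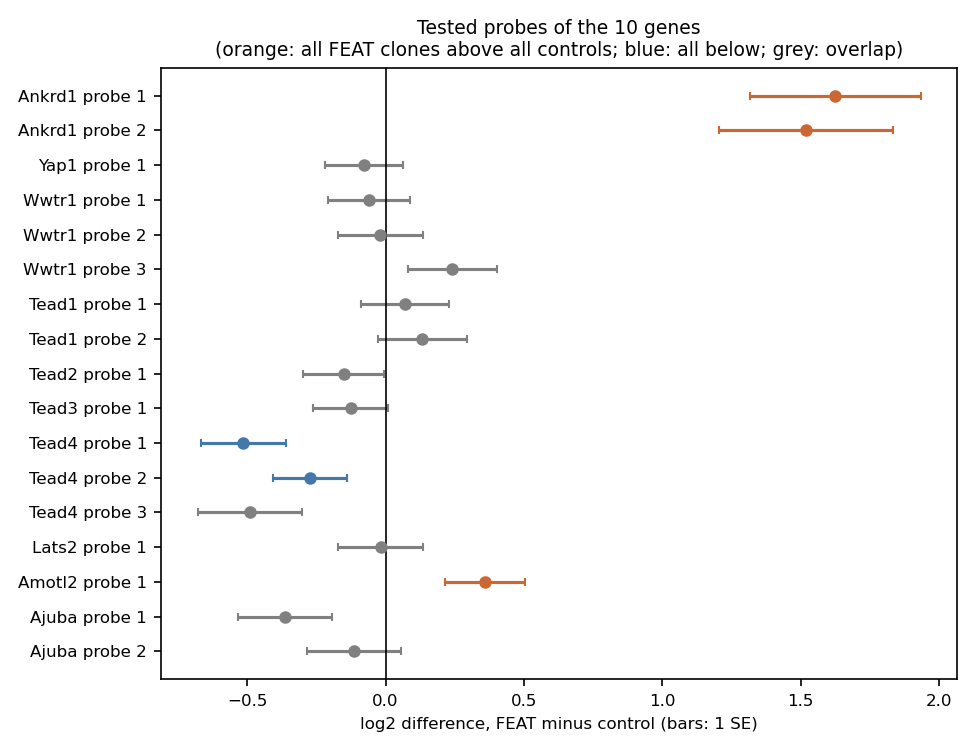
Log2 difference (FEAT minus control, horizontal axis, bars 1 SE) of the 17 tested probes, with probes of a gene numbered from the brightest. Orange marks probes with all FEAT clones above all control clones, blue all below, grey overlap: the Ankrd1 probes stand at 1.63 and 1.52, the Tead4 probes at -0.51, -0.27 and -0.49, and most others within 0.25 of 0.

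Ankrd1, a nuclear and sarcomeric ankyrin repeat protein best known from heart muscle, is among the most used readouts of YAP and TAZ activity. Its brightest probe read 651, 1614 and 716 in control 1, 2 and 3, and 2676, 2243 and 3503 in FEAT-3, FEAT-15 and FEAT-20. All FEAT clones lay above all control clones, and control 2 stood at 2.48 times control 1, closer to FEAT-15 than to the other controls on the log2 scale. The log2 difference was 1.63 (SE 0.31), a 3.09-fold higher level, the 13th largest rise among 13315 genes. In RNA from a whole culture, more cells that express a gene and more RNA per cell cannot be told apart.

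The other Ankrd1 probe read 290, 730 and 334 in the control clones and 1075, 939 and 1395 in the FEAT clones, which puts the 6 clones in the same order. Its log2 difference was 1.52 (SE 0.31). The ratio of the brighter to the dimmer probe stayed between 2.15 and 2.51 in the 6 clones. The SD of Ankrd1 among the control clones was 0.76 on the log2 scale, larger than that of 99.4% of the genes tested, and 0.32 among the FEAT clones. Without control 2 the difference was 2.06, and without control 1 it was 1.37.

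Because Ankrd1 is a muscle gene in the body, muscle markers were looked at beside it. Of 15 muscle markers on the array, 8 were above background on no array, among them the muscle regulators Myod1, Myf5 and Myf6 and the muscle proteins Ckm, Mb and Actc1. Des, Acta1, Myl4, Tnnc1 and Nkx2-5 were above it on all 6 arrays, Myog, a relative of Myod1, on 1 control and 3 FEAT arrays, and Tnni1 on 3 control and 0 FEAT arrays. The summed intensity of the 15 was 2165 to 2453 in control clones and 2158 to 2777 in FEAT clones. Some of the 15, among them Myod1, Myf5 and Ckm, were too dim to be tested. Of those tested 0 passed limma's adjusted threshold, against 0.225% of all genes tested, and nothing is read from this in so few genes. Acta1 read 198, 123 and 223 in the control clones and 593, 212 and 184 in the FEAT clones, so the groups overlapped and FEAT-3 alone was high. Tnnc1, a troponin gene, read 272, 209 and 225 in the control clones and 184, 164 and 176 in the FEAT clones, lower without overlap (log2 difference -0.52, limma adjusted p = 0.287). The part of these markers in the Ankrd1 difference was not tested.

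Amotl2, the angiomotin-like scaffold that binds YAP and is itself a target, read 645, 798 and 618 in the control clones and 879, 840 and 918 in the FEAT clones. The lowest FEAT clone was just above control 2, the highest control. The log2 difference was 0.36 (SE 0.14), a 1.28-fold higher level. In both Ankrd1 and Amotl2 the control closest to the FEAT clones was control 2. Leaving out a clone moved the Amotl2 difference between 0.29 and 0.48.

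Lats2, the LATS kinase gene that YAP itself induces, read 71.6 to 85.9 over the 6 clones and was above background on none, so these arrays give no level or fold for it. Ajuba read 108, 136 and 126 in the control clones and 111, 91.1 and 113 in the FEAT clones, with 5 of 6 arrays above background and FEAT-15 below it. In the value table FEAT-3 and FEAT-20 were higher than control 1, and on the normalized scale FEAT-20 alone was, so the groups overlapped on both (log2 difference -0.36, SE 0.17), and the second Ajuba probe gave -0.11.

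Although the levels of Yap1, Wwtr1 and Tead1 overlapped between the groups, their lowest clones were the same. In 6 of 6 tested probes of these 3 genes, control 1 and FEAT-20 were the lowest pair of clones, a pattern picked after the values were seen. Probes of 1 gene are not separate observations, so these are 3 genes on the same arrays. Over all genes tested, each on its brightest probe, the same pair was lowest in 5.87% of 13315. The deviation of Tead1 from its mean was -0.23 in control 1 and -0.21 in FEAT-20 on the log2 scale, that of Yap1 -0.19 and -0.13, and that of Wwtr1 -0.16 and -0.21. In the second Wwtr1 probe control 1 and control 2 nearly tied, at -0.037 and -0.032. The other clones did not run alike: in control 2 Yap1 stood at 0.17, its highest value, Wwtr1 at 0.08 and Tead1 at -0.05. The arrays of control 1 and FEAT-20 also had the highest mean intensities before scaling, 717 and 735, with FEAT-15, where Tead1 was high, at 709. The part of array brightness in this was not tested. Ankrd1, like Yap1 and Tead1, was lowest in control 1, but unlike these 3 genes it was highest in FEAT-20.

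**Figure D3:**
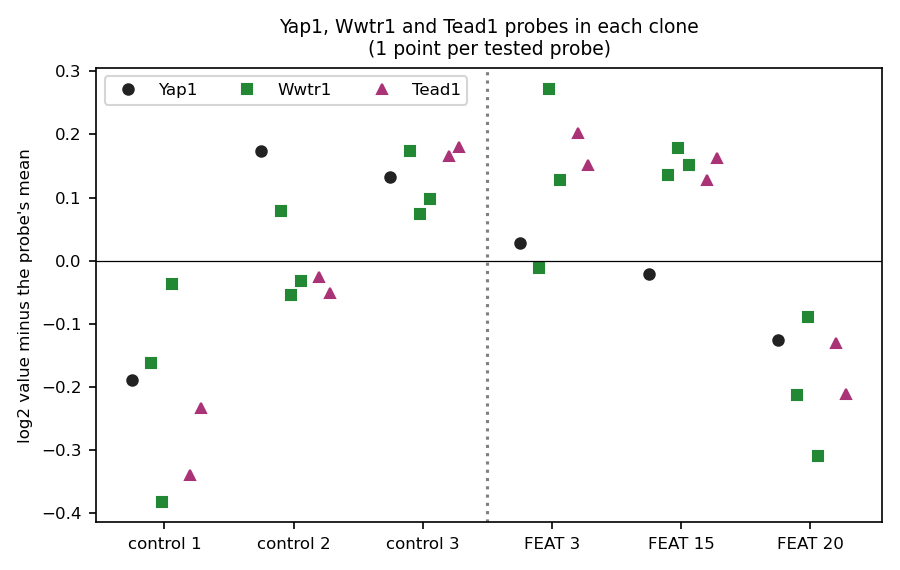
Log2 value of each tested probe of Yap1, Wwtr1 and Tead1 minus the probe's mean over the 6 clones (vertical axis), by clone, 1 point per probe. All points of control 1 and FEAT-20 lie below 0, between -0.38 and -0.04.

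The genes nearest to Ankrd1 over the 6 clones, by Euclidean distance between log2 values centred on the control mean, were Chn2, Scara5, As3mt, Tmem132a and Ptx3, at distances of 0.63, 0.72, 1.07, 1.08 and 1.19. Chn2 and As3mt were above background on 1 of 3 control arrays, so their distances rest in part on background values. Tmem132a, a transmembrane protein, read 126, 377 and 110 in the control clones and 368, 479 and 367 in the FEAT clones, with control 2 among the FEAT clones. Scara5, a ferritin-binding scavenger receptor, read 1213, 2344 and 911 against 3814, 4802 and 6286. Nearest to Amotl2 were Cd3eap, Zdhhc9, Exoc4, Sf1 and Mt4, at distances of 0.087 to 0.15. Mt4 was above background on 1 of 3 control arrays, so its distance too rests in part on background values. The log2 values of Amotl2 ranged over 0.58 and those of Ankrd1 over 2.44. How many genes lie about as near to Amotl2 was not counted.

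The rest of the pathway was read from 4 gene lists, each gene on its brightest tested probe. They held 54 genes, of which 45 were tested. The lists were chosen with earlier results of these data known, so nothing is read from how their counts compare with all genes. With limma and Benjamini-Hochberg adjustment over all probes, 2 of the 45 rose, Ccn2 and Nuak2, and 0 fell, against 0.135% of all genes tested that rose and 0.0901% that fell. Both belong to the target list. The median log2 difference of the 45 was 0.046, against 0.0071 over all genes.

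**Figure D4:**
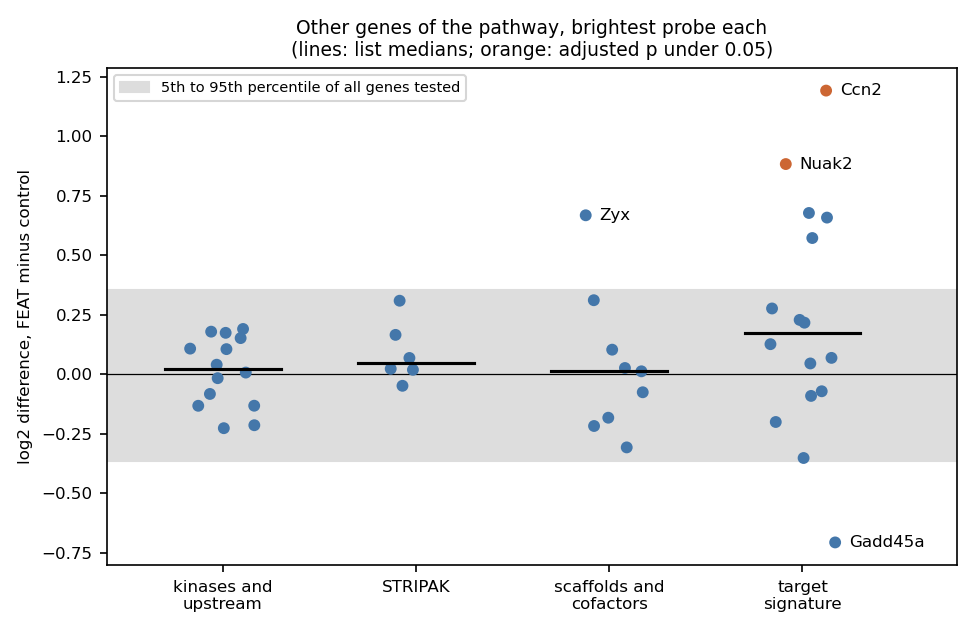
Log2 difference (FEAT minus control, vertical axis) of the tested genes in each of the 4 pathway lists, with the list median as a line and the range from the 5th to the 95th percentile of all 13315 genes (-0.36 to 0.35) in grey. The kinase and STRIPAK genes lie inside the grey range, while Ccn2 and Nuak2 (orange, adjusted p under 0.05) stand at 1.19 and 0.88 and Gadd45a at -0.71.

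The kinase cassette and its upstream regulators restrain YAP and TAZ. Of 14 genes tested, 0 passed limma's adjusted threshold and 0 had an unadjusted p under 0.05, against 0.225% and 10.1% of all genes tested. Nothing is read from these counts in so few genes. The median log2 difference was 0.024, and the range was -0.23 to 0.19. Taok1, a kinase that activates MST, read 1887, 1997 and 1911 in the control clones and 1574, 1793 and 1766 in the FEAT clones (log2 difference -0.21, limma adjusted p = 0.654). Mob1a, the cofactor of LATS, read 1709, 1855 and 1794 against 1902, 2051 and 2153 (0.15, limma adjusted p = 0.770). The groups did not overlap for either gene, neither passed, and the other probes of Taok1 gave -0.06, -0.0033 and 0.15 with overlap. Frmd6 and Wwc2, which act upstream of the kinases, differed by 0.18 and 0.17 and overlapped. Nf2, the gene of merlin, was above background on no array, and Taok2 on 1 array of each group.

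STRIPAK is the phosphatase complex that switches the MST kinases off. Of its 6 tested genes 0 passed limma's adjusted threshold and 0 had an unadjusted p under 0.05, against the same 0.225% and 10.1% of all genes, and the median log2 difference was 0.046. Strn4, a striatin scaffold, read 1110, 1616 and 1358 in the control clones and 1449, 1959 and 1694 in the FEAT clones (0.31, limma adjusted p = 0.623), with overlap. Its other probe was above background on 1 FEAT array alone. Slmap, Strn and Mob4 differed by 0.02, 0.02 and 0.07. Strip2 was above background on 1 control and 2 FEAT arrays and Sike1 on 1 of each group.

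Among scaffolds and TEAD cofactors 0 of 9 passed limma's adjusted threshold, 1 higher and 1 lower gene had an unadjusted p under 0.05 (22.2%, against 10.1% of all genes), and the median was 0.013. Zyx, the gene of zyxin, a LIM protein of focal adhesions and stress fibres, read 14557, 19141 and 19174 in the control clones and 24080, 27150 and 29814 in the FEAT clones. The groups did not overlap, and the log2 difference of 0.67 (SE 0.16) did not pass (limma adjusted p = 0.185). Amotl1, a relative of Amotl2, went the other way, with 1788, 1942 and 2250 against 1585, 1777 and 1595 (-0.31, limma adjusted p = 0.543), and its other probe gave -0.28 with overlap. Wtip, which belongs to the family of Ajuba, read 894, 1051 and 1105 against 1221, 1436 and 1180 (0.31, limma adjusted p = 0.559). Trip6, a LIM protein related to zyxin, differed by -0.22, without overlap on the normalized scale but with overlap in the value table, and its other probe by -0.06 with overlap. Amot and Vgll2 were above background on no array.

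The target list is a published signature of genes that respond to YAP and TAZ across cancer types, without the members described above. Of its 19 genes 16 were tested. Ccn2 and Nuak2 rose, 0 fell, and 5 higher and 2 lower genes had an unadjusted p under 0.05, which is 43.8% of the list against 10.1% of all genes. The median log2 difference was 0.17. The groups did not overlap for 5 genes, all higher in FEAT clones, where 7.95% of all genes tested lay higher without overlap and 7.24% lower. Nothing is read from these shares, since the list was chosen with earlier results of these data known. Against the control mean the list's median was -0.032, 0.0057 and -0.0068 in control 1, 2 and 3, and 0.048, 0.19 and 0.30 in FEAT-3, FEAT-15 and FEAT-20. Centring each gene on the mean of the control clones holds their medians near 0, so the closeness of the control clones is not a result.

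Ccn2, a matricellular growth factor and a standard YAP readout, read 14063, 12173 and 16287 in the control clones and 40618, 28183 and 28897 in the FEAT clones. Unlike Ankrd1 it was not higher in control 2, which was the lowest clone of all. The log2 difference was 1.19 (SE 0.15, limma adjusted p = 0.0195), and the other probe gave 1.27 (limma adjusted p = 0.0195). The call was lost without control 1 or without FEAT-3 (limma adjusted p = 0.149 and 0.0617), where the differences were 1.17 and 1.10. Over the other alternatives the adjusted p ran from 6.75e-04 to 0.0462.

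Nuak2, a kinase of the AMPK family that acts on actin and myosin, read 1068, 979 and 1042 in the control clones and 1807, 1732 and 2190 in the FEAT clones. The control clones lay close together, and the log2 difference was 0.88, a 1.84-fold rise (SE 0.14, limma adjusted p = 0.0327). This call was lost without control 1, control 3, FEAT-3, FEAT-15 or FEAT-20 (limma adjusted p = 0.182, 0.138, 0.114, 0.0512 and 0.0798), with differences from 0.80 to 0.96, and was kept without control 2. Over the 8 settings of scaling, filter, variance and probe the adjusted p ran from 0.0102 to 0.0405.

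Ccn1, the closest relative of Ccn2 and the other standard readout, read 1355, 1402 and 1352 in the control clones and 2594, 1993 and 1983 in the FEAT clones. The groups stood well apart, yet the log2 difference of 0.66 (SE 0.16) did not pass (limma adjusted p = 0.174). Its other probes gave 0.65 and 0.67, also without overlap and without passing (limma adjusted p = 0.206 and 0.164).

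Ccdc80, a secreted matrix protein, read 1237, 1001 and 927 in the control clones and 1798, 1530 and 1735 in the FEAT clones (0.68, limma adjusted p = 0.160), while its other probe, above background on 1 array of each group, gave 0.04. Crim1, a transmembrane protein that binds BMPs, read 184, 192 and 223 against 259, 258 and 319 (0.57, limma adjusted p = 0.238), with 0.24 on its second readable probe. Both separated the groups and neither passed. Gadd45a, a stress gene, went the other way at -0.71 (limma adjusted p = 0.424), with 1918, 3035 and 1801 in the control clones and 1878, 1000 and 1417 in the FEAT clones, which overlapped, and its other probe gave -0.63. Axl, a receptor kinase, differed by 0.23 and -0.18 on its 2 probes and overlapped on both, and F3 and Igfbp3 were above background on no array.

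**Figure D5:**
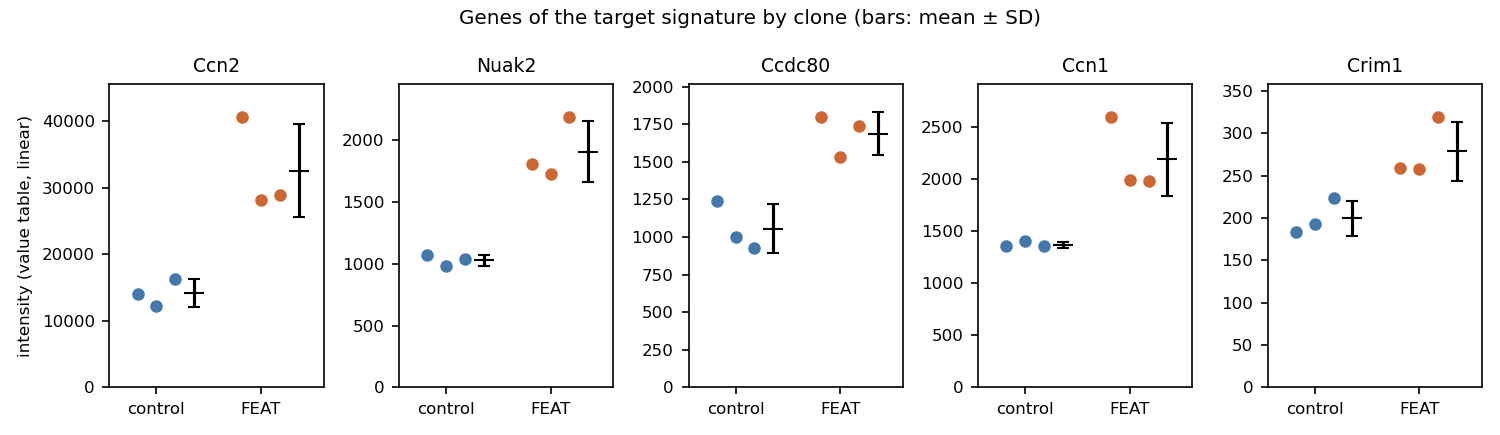
Intensity (value table of the series, linear axis from 0) of 5 genes of the target list in control clones (blue, control 1, 2 and 3 from left to right) and FEAT clones (orange, FEAT-3, FEAT-15 and FEAT-20), with mean and SD. These are the 5 of 16 tested genes of the list picked because all FEAT clones lay above all control clones. The other tested genes overlapped between the groups and are not shown. Ccn2 and Nuak2 passed the limma test.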

How the data were processed

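Per the labels, RNA was isolated with RNeasy Mini, amplified with a TotalPrep kit and labelled with Cy3, and each clone had 1 array. The submitters' processing notes name BeadStudio. In the sources used here, neither its version nor the build of the array design is given. The deposited files hold linear probe intensity values with the background included, and the deposited value table holds the same intensity values times 1 factor per array (0.925 to 1.10).

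With R 4.3.3 and limma 3.58.1, normexp (offset 16) was fitted to the intensities, followed by quantile normalization and log2, and the 27169 probes in the top 60% by mean were tested with lmFit and eBayes, two-sided, with Benjamini-Hochberg adjustment. There were no detection p-values, so dim probes depend on normexp. The limma fit and its adjustment were tested on simulated log2 values, while normexp, quantile normalization and the filter were not. An exact permutation test of 3 against 3 cannot go below 0.1, and none was used. The brightest tested probe stood for a gene. Of the 45281 probes, 34885 had 1 gene symbol. Control and FEAT numbers only name clones.

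The members and lists were chosen with earlier results of these data known. The text names all members, Ccn1 and Ccn2, in each list up to 6 genes of lowest unadjusted p and any called, and the 5 genes nearest to Ankrd1 and to Amotl2; Axl, F3, Igfbp3, Slmap, the marker genes and the pair of lowest clones were named after their values were seen.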

Additional observations from a re-analysis of the deposited data

How the results depend on the processing

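Over all probes, 38 to 68 were called under the 7 settings of background correction, scaling, filter and variance model, against 50 in the fit reported. Without a clone the limma count ran from 0 (without control 1, where 1914 probes had an unadjusted p under 0.05) to 157 (without control 2). The pathway genes called were 2 in all 8 settings, the mean of all probes included, and 0 to 2 without a clone. The median difference of the 10 members stayed between -0.07 and -0.04 in the settings and between -0.14 and -0.0020 without a clone. The members whose groups did not overlap were 3 in all 8 settings and 3 to 6 without a clone, 6 of them without control 1. Fewer clones separate more easily. The share over all genes was not computed for these settings and omissions, so nothing is read from these counts. Ankrd1 ranged from 1.57 to 1.64 and Tead4 from -0.51 to -0.43 over the settings. Wwtr1, at -0.06, was 0.05 with the mean of its probes. No paired analysis was possible because the groups share only 1 clone number, which names unrelated clones. Signal over background limits Lats2, Tead3 and Ajuba most.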
